A study of Mus musculus with 2 samples.

Results

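The genes described here are 10 enzymes of steroid metabolism in mouse liver: Cyp17a1, the hydroxysteroid dehydrogenases Hsd3b2, Hsd3b3, Hsd3b5, Hsd11b1, Hsd17b2, Hsd17b6 and Hsd17b13, and the steroid 5-alpha reductases Srd5a1 and Srd5a2. They were chosen by name, among 18193 named genes, with results of these arrays already known, so their differences are given as a description and not as a test. Of the 10 genes, 8 had at least 1 probe set (several short probes read together for 1 transcript) named for them alone, 11 probe sets in all. These 8 genes were measured on both arrays, and Srd5a1 and Srd5a2 are not analysed here.

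The study set an adenovirus that overexpresses PDK4, a kinase that inactivates the pyruvate dehydrogenase complex, against the same kind of virus with an empty vector. The Ad-PDK4 group held 3 C57BL/6J mice and the Ad-control group 4, all 2 months old, and each mouse received 1000000000 plaque-forming units through the tail vein. Livers were collected on day 3 and combined within a group, and each pool gave 1 array. Both groups therefore carried adenovirus, an uninfected liver is not part of the comparison, and neither the vector's promoter nor the sex of the mice is stated in the labels. With 1 array per group no p-value was computed, and the spread between mice is unknown. In pooled tissue, fewer cells of a type and less RNA per cell cannot be told apart.

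The liver is the main site where circulating steroids are reduced, oxidized and conjugated for excretion. Hydroxysteroid dehydrogenases interconvert the hydroxyl and keto forms of a steroid at a given carbon, which switches a hormone between its active and inactive forms, and several of them also act on retinoids or fatty acyl chains. In mouse liver the set of these enzymes differs between males and females and depends on the pattern of growth hormone secretion.

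Values are the deposited signal intensities, which are linear. Differences are log2(Ad-PDK4 signal / Ad-control signal) after the median difference over all measured probe sets was set to 0, so a value says how a transcript stood against the rest of its own pool. A probe set counted as measured at or above a floor, the 50th percentile of its array, which was a signal of 99.9 on the Ad-PDK4 array and 93.4 on the Ad-control array. The pooled SD between probe sets of the same gene was 0.35 on the log2 scale over 4326 genes. Labelling or hybridization error common to a gene's probe sets is not in it, nor is the variation between animals. Pdk4 itself had a signal of 177 on the Ad-PDK4 array and 234 on the Ad-control array, a log2 difference of -0.39 on its only probe set. No source used here says whether that probe set reads the vector's transcript, so every direction below rests on the labels. All 11 measured hepatocyte markers lay within 1.5-fold between the pools.

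Cyp17a1 was higher in the Ad-PDK4 pool, Hsd3b2 was lower, and the other 6 measured enzymes lay within 1.5-fold. The log2 differences of the 8 genes ran from -0.71 to 1.57, with an SD of 0.71 among them and a median of -0.25. Over all 10389 genes measured on both arrays the median was 0.015. A difference of at least 1.5-fold was found in 1 of the 8 enzymes in the higher direction, where 9.21% of all measured genes lay, and in 1 in the lower direction, where 5.20% of all measured genes lay. With 8 genes measured, 1 gene is 12.5% of them, so neither count stands out from that background. Below 0 were 5 enzymes and above 0 were 3. The median moved to 0.010 when the hybridization controls, bacterial and phage transcripts added to every array, were set to 0 in place of the median probe set, so the side on which the enzymes as a group lay depends on the scaling.

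**Figure D1:**
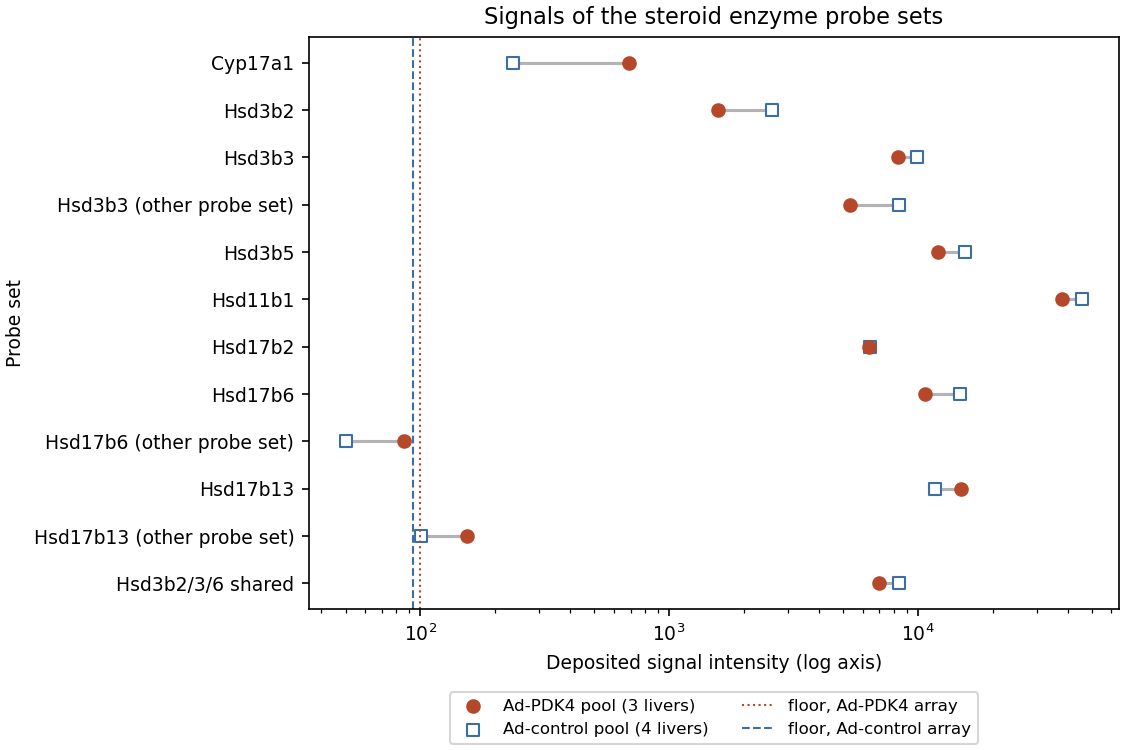
Deposited signal intensity (log axis) of every probe set of the measured steroid enzymes on the Ad-PDK4 array (filled circles) and the Ad-control array (open squares), with the floor of each array as a vertical line. Cyp17a1 lies to the right in the Ad-PDK4 pool (691.6 against 235.2), Hsd3b2 lies to the left (1577 against 2598), and the 2 signals of Hsd17b2 fall on each other.

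Cyp17a1 (Entrez gene 13074, chromosome 19) encodes the cytochrome P450 that hydroxylates pregnenolone and progesterone and cleaves the product to androgen precursors. Its only probe set had a signal of 691.6 on the Ad-PDK4 array and 235.2 on the Ad-control array. The gene was 2.97-fold higher in the Ad-PDK4 pool, a log2 difference of 1.57, which is 4.46 times the SD between probe sets of 1 gene. Of all measured genes, 91 (0.876%) were at least as high. The signal was 6.92 times the floor on the Ad-PDK4 array and 2.52 times the floor on the Ad-control array, so the gene was dim in the control pool. With genes split into 4 classes of equal size by mean signal, it belonged to the second dimmest class. In that class the SD of all differences was 0.52, 1.35% of genes were as high as Cyp17a1 and 11.4% were at least 1.5-fold higher. For a floor at the 70th percentile its control signal was under the floor, and the difference became a bound of at least 1.31.

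The measured genes of electron and cofactor supply to the P450 and dehydrogenase enzymes lay closer to 0, on both sides of it. Of 8 genes listed, 3 had no probe set named for them alone, so this supply was examined only in part. Cyb5a, cytochrome b5, which supports the lyase reaction of CYP17A1, had signals of 51653 on the Ad-PDK4 array and 66004 on the Ad-control array, a log2 difference of -0.34. Of 5 measured genes of electron and cofactor supply, 1 was at least 1.5-fold higher, Pgd of the pentose phosphate pathway with 0.72, and 0 were lower, beside 9.21% and 5.20% of all genes. Pgd was at 0.15 on its lowest of 4 probe sets. The list median was -0.17.

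Cyp17a1 is known from gonads as well as liver, so markers of steroid-producing glands were set beside it. Of 10 named genes of adrenal and gonadal steroid synthesis, 5 were under the floor on both arrays. These were Cyp11a1 (15.0 on the Ad-PDK4 array and 47.3 on the Ad-control array), which starts steroid synthesis from cholesterol, Cyp11b2 of aldosterone synthesis, Cyp21a1 (62.2 and 67.0), the gland regulator Nr5a1 (52.6 and 35.2) and the corticotropin receptor gene Mc2r (5.4 and 9.9), in the same order of arrays. Cyp11b1, the last enzyme of corticosterone synthesis, had signals of 220.7 and 54.4 and was at least 2.39-fold higher in the Ad-PDK4 pool. Star, which carries cholesterol into mitochondria, had 103.8 and 157.9, close to the floor on both. Of the 10 genes, only Cyp11b1 was above the floor in just 1 pool, the Ad-PDK4 pool. The 5 genes named first were under the floor in both pools. Among all named genes, 12121 were above the floor on at least 1 array and 10389 on both, so many genes were above it in 1 pool only. In the list of other steroid dehydrogenases, 1 gene was above the floor only in the Ad-PDK4 pool, Hsd3b1, described with its cluster. Another, Hsd17b1, was above it only in the Ad-control pool, with 47.6 on the Ad-PDK4 array and 99 on the Ad-control array. The part of gland genes in the Cyp17a1 value was not tested. The summed signal of the 10 genes was 13323 on the Ad-PDK4 array and 14669 on the Ad-control array, most of it from the widely expressed Fdx1.

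The Hsd3b genes described here encode 3-beta-hydroxysteroid dehydrogenases, and in the mouse they lie in a cluster on chromosome 3. RefSeq lists Hsd3b4, Hsd3b5, Hsd3b2, Hsd3b3, Hsd3b6 and Hsd3b1 there in this order, with the protein-coding Gm10681 and pseudogenes between some of them. Hsd3b2 and Hsd3b3 belong to the isoforms that oxidize and isomerize the steroid ring, a step toward progesterone and androgens. Hsd3b5 is the isoform of male mouse liver and works as a keto-steroid reductase that inactivates androgens. The 3 measured members of the cluster all lay below 0, except that Hsd3b3 was slightly above 0 with the hybridization controls set to 0, and their sizes differed.

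Hsd3b2 (Entrez gene 15493) had a signal of 1577 on the Ad-PDK4 array and 2598 on the Ad-control array. It was 1.63-fold lower in the Ad-PDK4 pool, a log2 difference of -0.71 on its only probe set, and 321 of all measured genes (3.09%) were at least as low. Among the brightest of the 4 classes, to which it belongs, 1.69% were as low and 2.89% were at least 1.5-fold lower. The difference was -0.45 when the hybridization controls were set to 0, which leaves it within 1.5-fold.

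Hsd3b3 (Entrez gene 15494) had 2 probe sets, which differed in size and not in direction. The brighter gave 8341 on the Ad-PDK4 array and 9920 on the Ad-control array, a log2 difference of -0.24. It is of the kind marked _x_at, whose probes can match several transcripts. The other gave 5357 on the Ad-PDK4 array and 8386 on the Ad-control array, a log2 difference of -0.63, or 1.55-fold lower. The gap between them was slightly wider than the SD between probe sets of 1 gene. That SD measures single probe sets about the mean of their gene. The SD of a gap between 2 probe sets is larger, so this gap is not unusual. With the brighter probe set left out, Hsd3b3 joined Hsd3b2 past 1.5-fold, and with the hybridization controls set to 0 the brighter one was at 0.020. A further probe set is annotated to Hsd3b2, Hsd3b3 and Hsd3b6 together and was given to none of them. Its signals were 6954 on the Ad-PDK4 array and 8427 on the Ad-control array, a log2 difference of -0.26.

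Hsd3b5 (Entrez gene 15496) had a signal of 12023 on the Ad-PDK4 array and 15408 on the Ad-control array. Its log2 difference was -0.34, 0.98 times the SD between probe sets of 1 gene in size, and 15.1% of all measured genes were at least as low. It is close in sequence to its neighbours, so signal shared among the isoforms cannot be told apart here for any of the 3 genes.

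The start regions of these genes are shown because these neighbours are copies of each other and lay on the same side, while Hsd3b1, shown last, lay on the other. Each is 1 RefSeq window of 250 bases before to 50 bases after the gene's start in GRCm38.p6, on the minus strand, at chr3:98645485-98645784 for Hsd3b5, chr3:98724494-98724793 for Hsd3b2, chr3:98763079-98763378 for Hsd3b3 (the first of its 2 windows) and chr3:98859745-98860044 for Hsd3b1. Capitals mark runs of at least 12 bases that also occur in another of the 4 windows.
Hsd3b5: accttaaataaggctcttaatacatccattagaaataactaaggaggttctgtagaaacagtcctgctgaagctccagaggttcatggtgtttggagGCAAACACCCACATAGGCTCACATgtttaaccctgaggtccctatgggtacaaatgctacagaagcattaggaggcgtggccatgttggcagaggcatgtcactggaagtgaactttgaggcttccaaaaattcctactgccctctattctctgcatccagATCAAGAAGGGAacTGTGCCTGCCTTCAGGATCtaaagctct
Hsd3b2: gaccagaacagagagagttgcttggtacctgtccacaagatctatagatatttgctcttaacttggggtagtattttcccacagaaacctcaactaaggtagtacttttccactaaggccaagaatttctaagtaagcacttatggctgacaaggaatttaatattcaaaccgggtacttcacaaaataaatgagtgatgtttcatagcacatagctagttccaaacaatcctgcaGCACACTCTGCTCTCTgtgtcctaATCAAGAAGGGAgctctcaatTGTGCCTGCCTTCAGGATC
Hsd3b3: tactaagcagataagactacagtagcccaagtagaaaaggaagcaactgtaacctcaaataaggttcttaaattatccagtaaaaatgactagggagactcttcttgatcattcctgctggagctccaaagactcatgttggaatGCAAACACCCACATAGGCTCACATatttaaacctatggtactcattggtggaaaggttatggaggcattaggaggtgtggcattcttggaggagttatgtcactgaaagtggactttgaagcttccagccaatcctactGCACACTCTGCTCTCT
Hsd3b1: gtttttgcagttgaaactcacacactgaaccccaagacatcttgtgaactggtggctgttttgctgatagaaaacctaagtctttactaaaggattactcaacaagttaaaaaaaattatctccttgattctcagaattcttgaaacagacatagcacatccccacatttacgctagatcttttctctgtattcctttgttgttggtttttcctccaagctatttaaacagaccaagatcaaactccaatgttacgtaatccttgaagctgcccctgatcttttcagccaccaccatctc

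The longest run common to Hsd3b5 and Hsd3b3 was 24 bases, that of Hsd3b5 and Hsd3b2 was 19 bases near the start, and that of Hsd3b2 and Hsd3b3 was 16 bases. The Hsd3b1 window shared no run of 12 bases with the others, and its longest match was 10 bases, with Hsd3b2. Identity over aligned columns did not set it apart. It was 52.9% for Hsd3b1 with Hsd3b3, 50% with Hsd3b5 and 49.7% with Hsd3b2. For the pairs of the other genes, in the order above, it was 55.5%, 55.4% and 50.7%. The second Hsd3b3 window was not compared. Shared runs covered 18.3% of the Hsd3b5 window, 15.7% of the Hsd3b2 window and 13.3% of the Hsd3b3 window. The palindromic STAT5 motif TTCNNNGAA, which reads the same on both strands, was searched because STAT5 carries the growth hormone signal in liver. It was found in 0 of the 10 windows that RefSeq lists for 8 of the 10 enzymes, in the Hsd3b1 window, and in 8.30% of all 32851 windows of the same length. That describes these letters in these windows only.

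Hsd3b1, the isoform of gonads and adrenals, is not among the 10 enzymes. Its probe set had a signal of 364.4 on the Ad-PDK4 array and 16.3 on the Ad-control array, under the floor. It was at least 3.94-fold higher in the Ad-PDK4 pool, a bound that was 1.31-fold for a floor at the 70th percentile and 10.2-fold for one at the 30th. In this pool the 4 genes of the cluster described here thus included 3 on the lower side and 1 on the higher side. Hsd3b3 was on the other side of 0 under the scaling named above.

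Hsd11b1 (Entrez gene 15483, chromosome 1) encodes the reductase that regenerates active corticosterone inside hepatocytes, with NADPH made by H6PD in the endoplasmic reticulum. Its signal was 37859 on the Ad-PDK4 array and 45652 on the Ad-control array, a log2 difference of -0.26. This is 0.73 times the SD between probe sets of 1 gene in size, 34.4% of the brightest class of genes were as far from 0, and the value was 0.00054 with the hybridization controls set to 0. H6pd lay close to it, with 3919 on the Ad-PDK4 array and 4490 on the Ad-control array and a log2 difference of -0.18, or 0.075 with that scaling. Of 25 measured targets of the glucocorticoid receptor, 3 were at least 1.5-fold higher and 2 lower, beside 9.21% and 5.20% of all genes, and their median was -0.072. For a floor at the 70th percentile the counts were 1 and 0, beside 5.3% and 3.3% of all genes. With the hybridization controls set to 0 they were 6 and 1, beside 21.2% and 1.63% of all genes. The median of the targets was then 0.18 and that of all genes 0.27. The highest were Cdkn1a (2.33), an inhibitor of cyclin-dependent kinases, and Lcn2 (1.66), an acute phase protein, both also induced by other signals. The lowest were Arrdc2 (-0.90) and Gadd45g (-0.63).

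Hsd17b2 (Entrez gene 15486, chromosome 8) encodes an oxidizing enzyme that turns estradiol into estrone and testosterone into androstenedione. It had nearly the same signal in both pools, 6385 on the Ad-PDK4 array and 6431 on the Ad-control array. The log2 difference was 0.0042, and 98.8% of the brightest class of genes were farther from 0. With the hybridization controls set to 0 it was 0.26.

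Hsd17b6 (Entrez gene 27400, chromosome 10) encodes an enzyme related to retinol dehydrogenases that oxidizes androstanediol. Its brighter probe set had a signal of 10648 on the Ad-PDK4 array and 14729 on the Ad-control array, or 1.37-fold lower in the Ad-PDK4 pool. The log2 difference of -0.45 was 1.29 times the SD between probe sets of 1 gene in size, and 6.55% of the brightest class of genes were as low. It stayed below 0 under all 10 alternatives, between -0.48 and -0.20. The second probe set was under the floor on both arrays, with 85.9 on the Ad-PDK4 array and 50.1 on the Ad-control array, and gives no difference.

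Hsd17b13 (Entrez gene 243168, chromosome 5) encodes a protein of the surface of lipid droplets in hepatocytes, with activity on retinol. It was the highest of the measured dehydrogenases among the members, of which only Hsd17b2 also lay above 0. Its brighter probe set had a signal of 14875 on the Ad-PDK4 array and 11694 on the Ad-control array, a log2 difference of 0.36. This is 1.03 times the SD between probe sets of 1 gene. In the brightest class of genes 8.20% were as high and 19.4% as far from 0. The second probe set was dim, with 154.6 on the Ad-PDK4 array and 100.5 on the Ad-control array, the latter 1.08 times the floor. It gave 0.64. Both probe sets pointed the same way. The value stayed above 0 under all 10 alternatives, between 0.33 and 0.62.

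**Figure D2:**
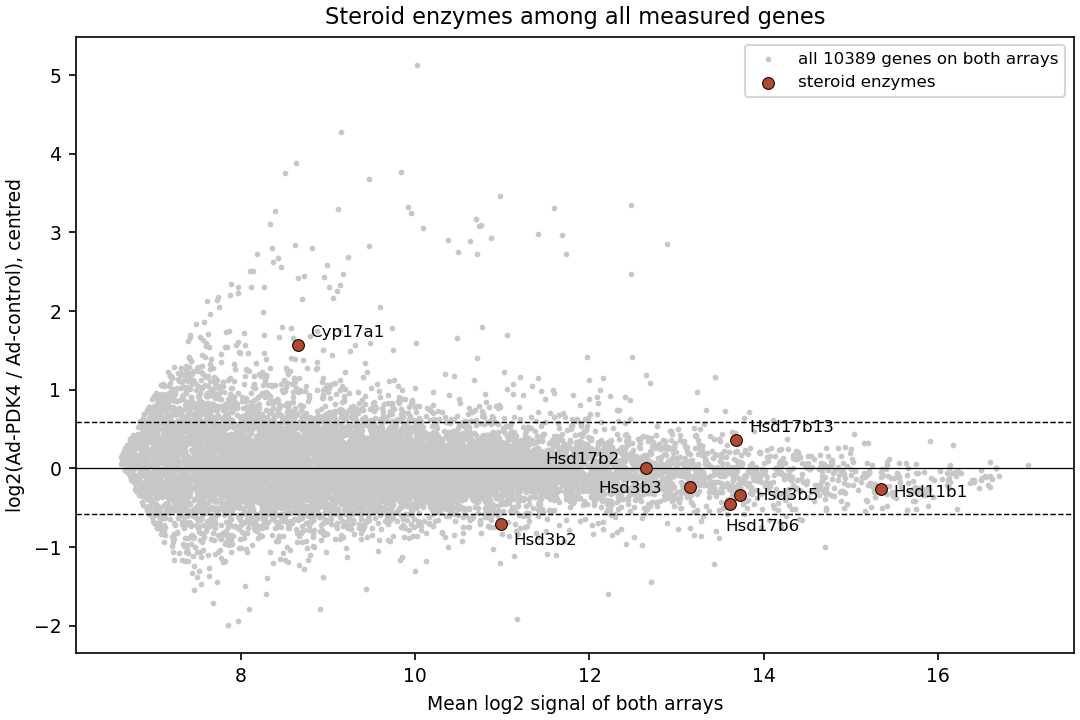
Centred log2 ratio (Ad-PDK4 over Ad-control) of each gene measured on both arrays against its mean log2 signal, with the 8 measured steroid enzymes in red and 1.5-fold marked by dashed lines. Cyp17a1 (1.57) lies above and Hsd3b2 (-0.71) below the dashed lines, and the spread of all genes narrows with brightness.

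The size of the differences has to be read against brightness. Of the 8 enzymes, 7 belonged to the brightest class of genes, where the SD of the log2 difference was 0.35 and the median -0.050. Cyp17a1 was the exception. In that class 3.23% of genes were past 1.5-fold in the higher direction and 2.89% in the lower one. Only 2 of the enzymes, Hsd3b3 and Hsd17b13, had a second measured probe set, so 6 of the 8 values rest on 1 probe set each.

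Other enzymes of the same families showed no common direction. Of 24 named genes in a list of other steroid dehydrogenases and reductases, 18 were measured on both arrays, of which 0 were at least 1.5-fold higher, 2 were lower and 16 lay within that range, beside 9.21% higher and 5.20% lower among all genes, with a median of -0.0082. With the hybridization controls set to 0 the counts were 2 higher (Hsd17b12 and Akr1c20) and 0 lower, beside 21.2% and 1.63% of all genes. The lower ones were Rdh16, a relative of Hsd17b6, with 830.6 on the Ad-PDK4 array and 1392 on the Ad-control array (-0.73), and Akr1c14, a reductase that inactivates androgens, with 15815 and 24249 in the same order (-0.60). Both were within 1.5-fold with the hybridization controls set to 0, and Akr1c14 also with loess centring or quantile normalization. The highest were Hsd17b12 (0.36), which acts in fatty acid elongation, and Akr1c20 (0.34, but -0.45 on its other probe set). The 5-beta reductase Akr1d1 gave -0.46. In steroid conjugation 9 of 9 measured genes were within 1.5-fold, with a median of -0.21, between Ugt2b1 (-0.45) and Ugt2b34 (0.016, or -0.10 on its other probe set). Of 7 measured steroid receptors and carriers, 7 were within 1.5-fold, with a median of -0.12, from the corticosteroid carrier Serpina6 (-0.33) to the estrogen receptor gene Esr1 (0.23).

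Genes that differ between the sexes in mouse liver were examined because Hsd3b5 is one of them. Among 16 measured male-biased genes, 2 were past 1.5-fold on the higher side and 0 on the lower side. The median was -0.11 and values ran from Cyp4a12a (-0.45) and Slco1a1 (-0.42) to Cyp7b1 (0.73) and Cyp2u1 (1.07). Of 12 measured female-biased genes, 4 were higher and 2 lower, with a median of 0.23, from Cyp4a14 and Fmo4 (both -0.75) to Atp6v0d2 (1.03) and Slc22a27 (1.09). The corresponding shares of all genes were 9.21% higher and 5.20% lower. For a floor at the 70th percentile the female-biased counts were 2 higher and 1 lower, beside 5.3% and 3.3% of all genes. Without a floor they were 8 and 4, beside 21.4% and 16.8% of all genes. With the hybridization controls set to 0 the counts were 5 higher and 0 lower in each list, beside 21.2% and 1.63% of all genes. The medians were then 0.15 for the male-biased genes, 0.49 for the female-biased genes and 0.27 for all genes. Of the Y-linked transcripts, Eif2s3y, Kdm5d and Uty were above the floor on both arrays and Zfy2 was under it on both, with signals of 1250 on the Ad-PDK4 array and 1836 on the Ad-control array for Eif2s3y, 366.7 and 298.3 for Kdm5d and 7.5 and 15 for Zfy2 in the same order. Xist, the transcript of the inactive X chromosome, was close to the floor, with 107.7 on the Ad-PDK4 array and 98.5 on the Ad-control array. In the growth hormone and STAT5 list 2 of 15 measured genes were higher and 1 lower, with a median of -0.18. Cish, a feedback inhibitor induced by STAT5, had 403.5 on the Ad-PDK4 array and 1183 on the Ad-control array (-1.54), while Stat5a (0.98) and the repressor Bcl6 (0.87) were the highest. Jak2 (-0.26) was the next lowest after Cish, and 12 of the 15 genes lay within 1.5-fold. The counts in this list were 2 higher and 3 lower for a floor at the 30th percentile, beside 13.3% and 8.13% of all genes. For one at the 70th they were 1 and 1, beside 5.3% and 3.3%.

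**Figure D3:**
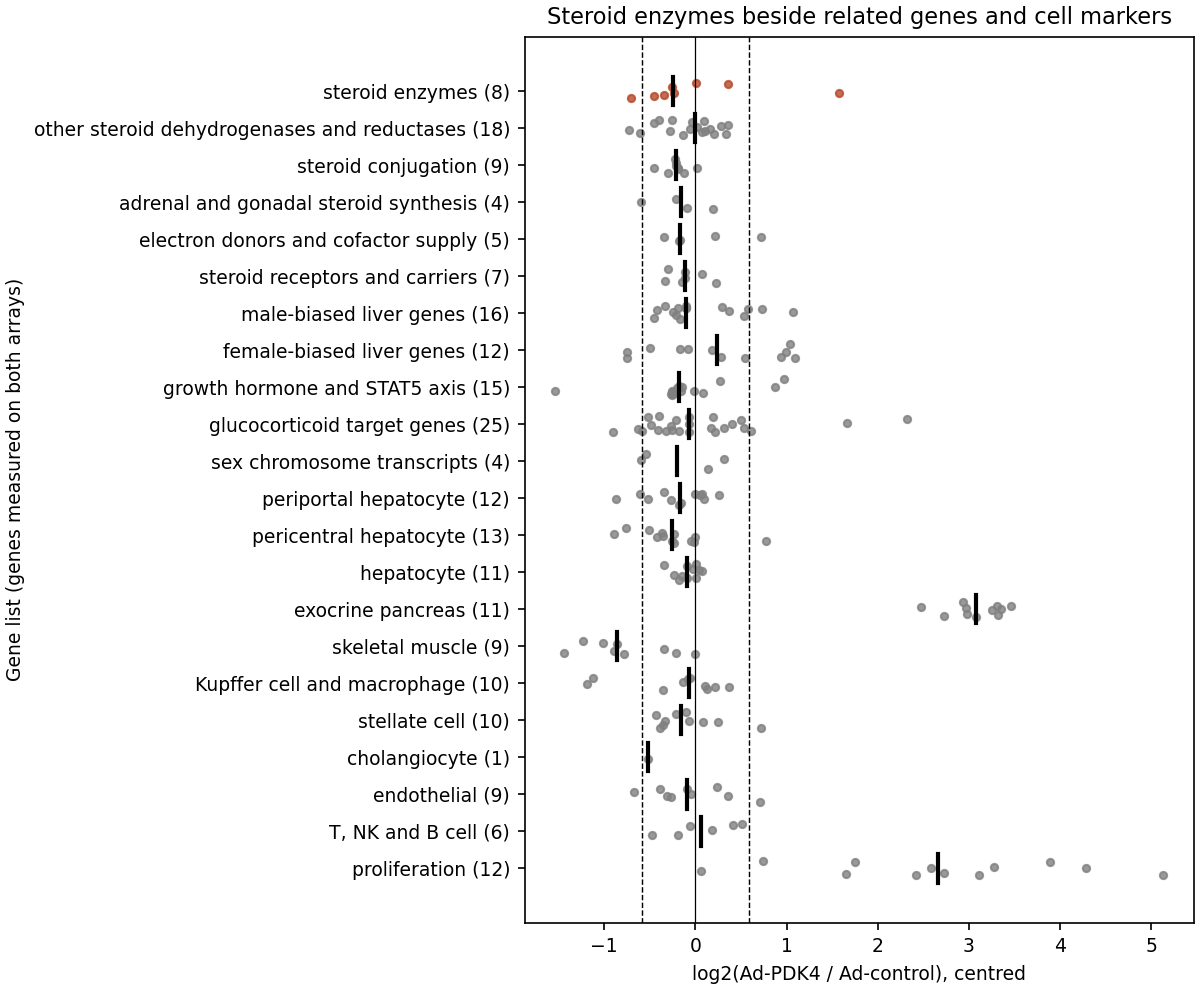
Centred log2 ratio (Ad-PDK4 over Ad-control) of every gene measured on both arrays in each list, 1 point per gene, with the list median as a black bar, 1.5-fold as dashed lines and the number of genes in brackets. The 8 steroid enzymes (top, median -0.25) overlap the lists of related enzymes, the exocrine pancreas list (median 3.08) lies above all of them, and the proliferation list (median 2.66) reaches from 0.061 to 5.13.

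The exocrine pancreas, proliferation and skeletal muscle lists differed between the same pools. The proliferation list is not tied to a cell type. Most measured genes of the remaining cell type lists, given under Other observations, lay within 1.5-fold. Of all measured genes, 9.21% were at least 1.5-fold higher and 5.20% lower. All 11 measured exocrine pancreas genes were at least 1.5-fold higher in the Ad-PDK4 pool, and their summed signal was 89328 on the Ad-PDK4 array and 11205 on the Ad-control array. In the proliferation list 11 of 12 genes measured on both arrays were higher, and the summed signal over its 16 named genes was 32194 on the Ad-PDK4 array and 7917 on the Ad-control array. Of 9 measured skeletal muscle genes 6 were lower, and the summed signal over 10 named genes was 3063 on the Ad-PDK4 array and 5191 on the Ad-control array. The part of these in the values of Cyp17a1 and the other enzymes was not tested.

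**Figure D4:**
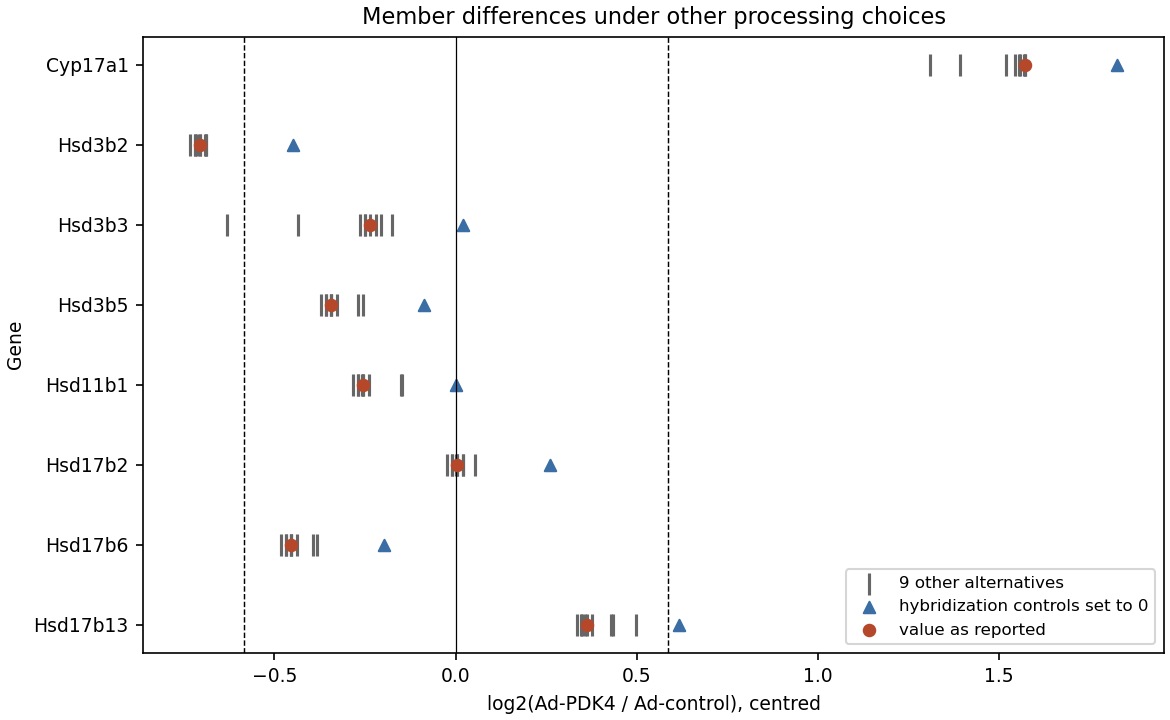
Centred log2 ratio (Ad-PDK4 over Ad-control) of each measured steroid enzyme as reported (circles), with the hybridization controls set to 0 (triangles) and under the 9 other processing choices (ticks). Cyp17a1 stays between 1.31 and 1.83, while Hsd3b3 runs from -0.63 to 0.020 and crosses 0.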

How the data were processed

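Liver RNA of each group was pooled, and the labels describe biotin-labelled cRNA made by the Affymetrix procedure. The deposited intensity table holds 45101 probe sets on each array. How probe signals were summarized and corrected for background, and the software, were not given in the sources used here. On both deposited columns the mean without the highest and lowest 2% was 500, the mark of a scaling to a common target. Gene names came from the platform annotation. Of 34945 probe sets with 1 symbol, 34741 were found by Entrez identifier in RefSeq (GRCm38.p6), and 0 symbols differed.

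The 64 control probe sets were set aside, except in the scaling on hybridization controls. The shift taken off to centre the log2 differences was -0.015. Where several probe sets named a gene, the brightest by mean log2 signal stood for it. Where 1 array was under its floor, the other array's signal was divided by that floor, which gives a bound, written "at least". Lists (21, with 303 genes, of which 259 were named) and members were chosen with earlier results of these data known. Named from the lists were the highest and lowest measured genes, by the rule of up to 2 each, any other steroid dehydrogenase past 1.5-fold, and markers that a sentence turns on; markers of other cell types are given as counts. Counts over lists take genes measured on both arrays. The 10 alternatives varied the floor, the centring, the probe set and the log scale. The calculations were tested on simulated data, with changed genes drawn from genes brighter than Cyp17a1 on the Ad-control array. Genes as dim as Cyp17a1 and the variation between mice were not covered by it. The number of arrays limits the precision. Python 3.11.15, pandas 2.3.3 and statsmodels 0.14.6 (loess) were used.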

Additional observations from a re-analysis of the deposited data

How the results depend on the processing

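No paired analysis was possible because each group is 1 array and no result comes from a test. The 10 alternatives left the direction of Cyp17a1, Hsd3b2, Hsd3b5, Hsd17b6 and Hsd17b13 as reported. Hsd3b3 and Hsd11b1 turned above 0 with the hybridization controls set to 0, and Hsd17b2, at 0.0042, crossed 0 under 3 alternatives. The number of enzymes at least 1.5-fold higher was 0 for a floor at the 70th percentile, where Cyp17a1 has only a bound, and 2 with the hybridization controls set to 0, where Hsd17b13 joined it. The number at least 1.5-fold lower was 0 with that scaling, and 2 without the _x_at, _s_at and _a_at probe sets, where Hsd3b3 joined Hsd3b2 at -0.63. The hybridization controls had a median log2 difference of -0.26, so that scaling moved the median of all genes to 0.27, and the shares of all genes past 1.5-fold were then 21.2% on the higher and 1.63% on the lower side. That scaling takes the same constant off every probe set, so the place of the enzymes among all genes could not change. Over all genes, 957 were past 1.5-fold on the higher and 540 on the lower side as reported, against 390 and 243 (70th percentile floor), 1730 and 1055 (30th percentile floor), 3890 and 3065 without a floor, and 2202 and 169 with the hybridization controls set to 0. Other causes were not tested. Distance from the floor limits Cyp17a1, Hsd3b1, Cyp11b1, Star and the second probe sets of Hsd17b6 and Hsd17b13.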

Other observations

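Genes of the hepatocyte zones were listed because the liver lobule handles steroids and lipids in zones. Of all measured genes, 9.21% were at least 1.5-fold higher and 5.20% lower. Of 12 measured periportal genes 0 were at least 1.5-fold higher and 2 lower, Hal (-0.87) and Cdh1 (-0.61), with a median of -0.17. Of 13 measured pericentral genes 1 was higher and 2 lower, with a median of -0.25. The higher gene was Tbx3 (0.78, with -0.51 on its lowest of 2 probe sets). The lower genes were Axin2 (-0.89, with 119.6 on the Ad-PDK4 array, close to the floor) and Slc1a2 (-0.76, with 0.43 on its highest of 3 probe sets). Below 0 were 8 of the 12 and 12 of the 13, and 5 of the 8 steroid enzymes.

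The remaining cell type lists gave the following counts, higher and then lower by at least 1.5-fold. Kupffer cell and macrophage genes had 0 and 2 of 10 measured, stellate cell genes 1 and 0 of 10, and endothelial genes 1 and 1 of 9. Genes of T, NK and B cells had 0 and 0 of 6, and 1 cholangiocyte gene was measured on both arrays, within 1.5-fold. Among 4 measured sex chromosome transcripts 0 were higher and 1 was lower, Uty (-0.60), with 0.24 on its highest of 3 probe sets. Of 4 measured genes of adrenal and gonadal steroid synthesis 0 were higher and 1 was lower, Star (-0.59). Star was within 1.5-fold with the hybridization controls set to 0 (-0.33), on the log2(signal + 50) scale (-0.42) and by the median of its probe sets (-0.065), and it had no value for a floor at the 70th percentile.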
